A study of Mus musculus with 24 samples.

Results

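The genes described are those of the mitochondrial respiratory chain, taken by name from a table of 12767 genes: every row whose symbol begins as a subunit gene of complex I (Ndufa, Ndufb, Ndufc, Ndufs, Ndufv), complex II (Sdha to Sdhd), complex III (Uqcr), complex IV (Cox4 to Cox8) or complex V (Atp5), and every row that begins with mt-. The rule found 104 genes. Of these, 79 are nuclear genes for structural subunits (36 of complex I, 4 of complex II, 8 of complex III, 15 of complex IV with Ndufa4 counted there, and 16 of complex V). A further 12 are mRNAs of the mitochondrial genome, 12 are nuclear assembly factors (Ndufaf and Sdhaf genes) and 1 is Atp5s, which is not a structural subunit. The rule reads names only, though it was set with earlier results of these data known. All 104 genes passed the filter on low values, as did 12749 of the 12767 genes in the table. Mt-Atp8, the remaining protein-coding gene of the mitochondrial genome, is not analysed here.

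The respiratory chain lies in the inner mitochondrial membrane. Complexes I and II take electrons from NADH and succinate, complex III passes them on to cytochrome c, complex IV hands them to oxygen, and complex V, the ATP synthase, uses the proton gradient that complexes I, III and IV build up. Most subunits are encoded in the nucleus and imported, complex II entirely so, while the mitochondrial genome encodes core subunits of the other complexes. Dendritic cells, like macrophages, are known to lower respiration and turn to glycolysis after strong stimulation through Toll-like receptors, many of which signal through the adaptor Myd88.

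The study sequenced RNA of CD11c+ dendritic cells, enriched with magnetic beads from the MLN (mesenteric lymph nodes) of female C57BL/6 mice of 6 to 8 weeks that carried tumours of MC38, a mouse colon cancer line, under the skin. Mice lacking Myd88 (KO) and wild-type mice (WT) were given anti-PD-1 together with live oral LGG (the bacterium Lactobacillus rhamnosus GG; called the combination), LGG, anti-PD-1 or control IgG. Anti-PD-1 is an antibody against a checkpoint receptor of T cells. This gave 8 groups of 3 libraries, 24 in all. Treatment started 7 to 10 days after injection of the tumour cells, at tumours of 100 mm3 on average, with 2 doses a week for 2 to 3 weeks and 200 ug of antibody per dose. No antibody is recorded for the groups on LGG alone, which therefore differ from the IgG groups by the antibody as well as by LGG. The labels do not say that the libraries of a group come from separate mice, and the p-values may reflect only technical variation.

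Library depth was 24531528 to 49272593 reads over the genes in the table. Myd88 itself had normalised values of 697 to 1837 in the 12 KO libraries and of 1723 to 2232 in the 12 WT libraries, and the overlap came from KO anti-PD-1 library 3, at 1837. A count over the whole gene does not show which exons are missing. Markers of other cells were present in every group and moved with treatment, and no marker was at 0 throughout a group. Summed over 18 macrophage and monocyte markers, normalised values were 95496 to 107308 in WT LGG libraries, against 328131 to 359163 in WT IgG libraries. By the test described below, 3 of these markers were higher and 12 lower in that comparison, beside 55.5% of all genes called. Calls are given here for this list and comparison only. Under KO the sums of the same 18 markers were 322617 to 460464 with LGG, against 437992 to 482919 with IgG. The 22 T cell markers summed to 16999 to 18689 in KO LGG, against 7904 to 8393 in KO IgG libraries, and to 25590.2 to 26909 in WT LGG, against 21182 to 22508 in WT IgG libraries. The 15 dendritic cell markers summed to 291389 to 335631 in WT LGG, against 235475 to 263031 in WT IgG libraries, and to 259478 to 410348 in KO LGG, against 229688 to 247114 in KO IgG libraries. The 9 NK cell markers summed to 11667 to 17769 in KO LGG, against 3412 to 3953 in KO IgG libraries, and to 55086 to 63449 in WT LGG, against 37479.8 to 39735 in WT IgG libraries. The 9 neutrophil markers summed to 7184 to 7677 in KO LGG, against 5495 to 5823 in KO IgG libraries, and to 3227 to 3328 in WT LGG, against 5696 to 5806 in WT IgG libraries. Sums of 10 B cell markers and of 6 stromal, epithelial and red cell markers were low; the second was 3818 to 3922 in WT LGG, against 1215 to 1328 in WT IgG libraries. The part of these shifts in the results that follow was not tested, and in bulk RNA fewer cells of a type and less RNA per cell cannot be told apart.

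Across libraries the 79 nuclear subunits together took between 0.933% and 2.16% of the reads, and the 12 mt- mRNAs between 0.431% and 2.50%. In WT the nuclear share was lower with LGG. It was 0.933% to 1.05% in WT combination libraries, against 1.19% to 1.27% in WT anti-PD-1 libraries, and 1.01% to 1.08% in WT LGG libraries, against 1.27% to 1.39% in WT IgG libraries. These WT ranges did not overlap within either pair. In KO combination libraries the share was 1.10% to 1.14%, against 1.06% to 2.16% in KO anti-PD-1 libraries, and in KO LGG libraries 0.998% to 1.53%, against 1.30% to 1.56% in KO IgG libraries. Both KO pairs overlapped.

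**Figure D1:**
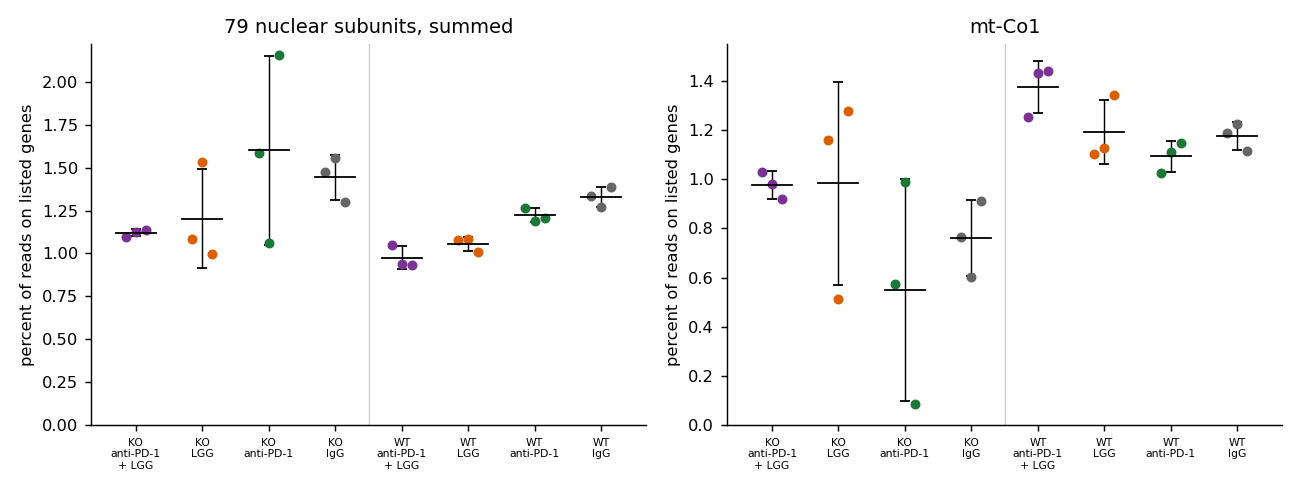
Share of each library's reads taken by the 79 nuclear subunit genes together (left) and by mt-Co1 alone (right), in percent of reads on listed genes. Points are libraries, lines are means and bars are SD (n = 3), in 8 groups, KO left of WT. The KO anti-PD-1 libraries spread from 1.06% to 2.16% for the nuclear subunits and from 0.0841% to 0.988% for mt-Co1.

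A set of 3 KO libraries, called here those that stood apart, was left out of some fits: anti-PD-1 libraries 2 and 3 and LGG library 2. In KO anti-PD-1 all 3 libraries differed from each other, and library 1 had a nuclear share of 1.58%. Over all genes, log2 values of library 1 correlated at 0.971 with library 2 and at 0.973 with library 3, and those of libraries 2 and 3 at 0.927. These values do not show which library is typical of that group. KO anti-PD-1 library 3 had a nuclear share of 2.16% and an mt-Co1 share of 0.0841%, and library 2 of the same group had 1.06% and 0.988%. The normalised value was higher in library 3 than in library 2 for 73 of the 79 nuclear subunits, with a median ratio of 3.55. The ratio was 0.121 for mt-Co1 and 0.197 for Uqcrc2, a core protein of complex III. KO LGG library 2 exceeded library 1 for 75 nuclear subunits, with a median ratio of 1.86. The library with the highest nuclear share of its group also had the lowest mt-Co1 share in 7 of the 8 groups. Over the nuclear subunits, the median ratio of the highest to the lowest library of a group was 3.59 in KO anti-PD-1, 2.08 in KO LGG and at most 1.24 in the other 6 groups. For all genes it was 1.66 in KO anti-PD-1 and 1.44 in KO LGG. All tests below pool the spread of the 8 groups, so these libraries also widen the errors of WT comparisons, and counts are given with and without them. Without them KO anti-PD-1 has 1 library and KO LGG 2, and the lone library is assumed to vary like the other groups. The 3 are described here by the same values that are counted below. KO LGG library 2 had a nuclear share of 1.53%, against 1.08% and 0.998% in libraries 1 and 3, so leaving it out by itself lowers the LGG estimates in KO. Counts without the 3 libraries are therefore descriptions and not independent support.

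In WT cells, LGG went with lower transcripts of some subunits in each of the 5 complexes, among them Ndufs1, Sdha and Atp5b, and with higher Uqcrh. Complex IV as a whole was not lower against IgG: 9 of its 15 estimates were positive, with a median log2 change of 0.05. Against IgG, 16 of the 79 nuclear subunits fell, 2 rose and 61 did not pass the test (limma on log2 of the normalised value plus 1, with a call at an adjusted p below 0.05). That is 22.8% of the subunits, beside 55.5% of all genes called in this comparison. The median log2 change was -0.14 over the subunits and -0.00324 over all genes. Without the 3 libraries that stood apart, 35 subunits fell and 15 rose, beside 73.4% of all genes, and 29 were called without KO anti-PD-1 library 2 alone. With the trend of change on gene length and GC content removed, 41 fell and 3 rose, beside 62.5% of all genes.

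The same comparison in the presence of the antibody, the WT combination against WT anti-PD-1, uses none of those 6 libraries. There 19 subunits fell, 2 rose and 58 did not pass, beside 56.8% of all genes called, and the median was -0.15. Without the 3 libraries, 37 fell and 15 rose, beside 74.5% of all genes. Of the falls, 15 were shared, which is 93.8% of the 16 with LGG and 78.9% of the 19 with the combination. Both rises, Uqcrh and Cox6b2, were shared. No such overlap is given for all genes, so these shares do not show whether the overlap is particular to the subunits. Although the libraries differ, both comparisons come from the same fit and use the same pooled spread, so they are not fully independent. The Cox6b2 call with LGG alone held in 14 of 33 alternative settings and was lost when any WT LGG or WT IgG library was left out. That of Uqcrh held in 28 of 33, and was lost without any 1 WT IgG library or without WT LGG library 1 or 2.

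**Figure D2:**
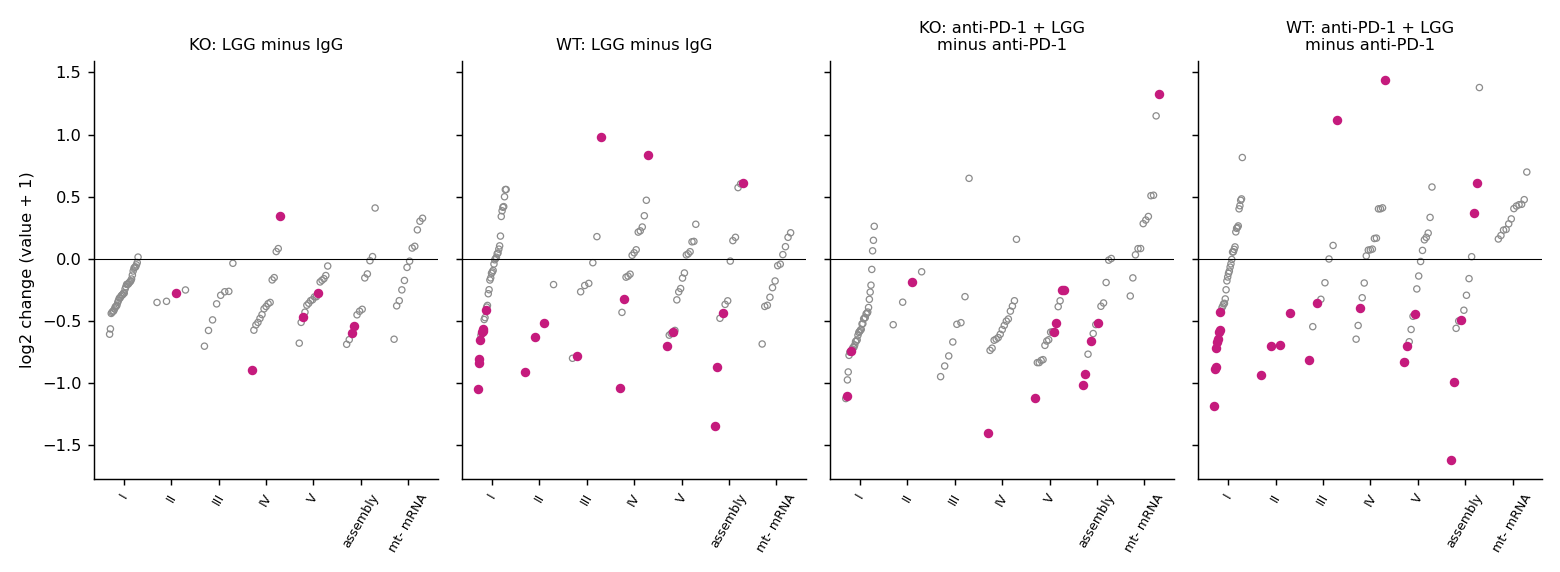
Log2 change of each member gene with LGG, alone against IgG (first pair of panels) and with anti-PD-1 against anti-PD-1 (second pair), KO left of WT in each pair, grouped by complex, assembly factors and mt- mRNAs. Filled points have an adjusted p below 0.05. In WT the filled points fall in complexes I to V with Uqcrh and Cox6b2 above 0, whereas the KO panels hold few filled points and most open points lie below 0.

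Within complex I, 8 of 36 subunits fell with LGG in WT and none rose. That is 22.2% of them, below the 55.5% of all genes called. Ndufs1, the largest iron-sulphur subunit of the arm that oxidises NADH (ENSMUSG00000025968, chr1:63143596-63176833 of mm10), had normalised values of 951, 909 and 1023 in WT LGG libraries, against 1945, 2036 and 1984 in WT IgG libraries. With the antibody it stood at 886, 933 and 1038 in WT combination libraries, against 2110.3, 2135 and 2256 in WT anti-PD-1 libraries. Neither pair overlapped. The log2 changes were -1.05 ± 0.15 (SE, adjusted p = 4.81e-06) and -1.19 ± 0.15 (SE, adjusted p = 9.05e-07). Ndufs8, another iron-sulphur subunit, had 1301, 1293 and 1181 in WT LGG and 2174, 2025 and 2438 in WT IgG libraries, a log2 change of -0.81 ± 0.24 (SE, adjusted p = 0.00833), and it fell beside anti-PD-1 as well, by 0.89 on the log2 scale. Ndufv1, which binds NADH, fell in both comparisons (-0.58, adjusted p = 0.0456, and -0.58, adjusted p = 0.047), near the threshold, and the calls held in 12 and 11 of 33 alternative settings.

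Not every core subunit fell. Ndufv2, an iron-sulphur subunit, had a positive estimate with LGG in WT, 0.56 (adjusted p = 0.0987), and Ndufs3 and Ndufs7 did not pass. Outside the core, 5 subunits fell: Ndufa12, Ndufb2, Ndufa9, Ndufb8 and Ndufb6, all accessory subunits, with log2 changes of -0.84, -0.66, -0.59, -0.56 and -0.41. The division into core and other subunits is a textbook one, made here with the values known.

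Complex II, which also works in the citric acid cycle, had 3 of 4 subunits fall with LGG in WT, beside 55.5% of all genes called. All 4 fell in the combination comparison, beside 56.8% of all genes. Sdha, the flavoprotein that oxidises succinate (ENSMUSG00000021577, chr13:74322254-74350280 of mm10), had 5238, 5151 and 5417 in WT LGG libraries, against 9913, 10091 and 9726 in WT IgG libraries. Its values were 5179, 5464 and 5381 in WT combination libraries, against 9929, 10330.3 and 10460.4 in WT anti-PD-1 libraries. The groups did not overlap in either comparison, with log2 changes of -0.91 ± 0.07 (SE, adjusted p = 9.86e-10) and -0.94 ± 0.07 (SE, adjusted p = 5.86e-10). The iron-sulphur subunit Sdhb fell by 0.63 and 0.70 on the log2 scale in the LGG and combination comparisons, and the membrane anchor Sdhc by 0.52 and 0.70. The other anchor, Sdhd, changed by -0.21 (adjusted p = 0.0734) with LGG alone, short of the threshold, and fell by 0.44 in the combination comparison (adjusted p = 0.000652).

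In complex III, Uqcrc1, a core protein, fell and Uqcrh rose. Uqcrc1 had 4488, 4475 and 3695 in WT LGG and 6888, 6861 and 8045 in WT IgG libraries, a log2 change of -0.79 ± 0.21 (SE, adjusted p = 0.00309). Uqcrh, the hinge protein at the docking site of cytochrome c (ENSMUSG00000063882, chr4:116066965-116075071 of mm10), went the other way, with 5807, 5816 and 4838 in WT LGG libraries, against 2828, 2482 and 3039.8 in WT IgG libraries. In WT combination libraries it had 5218, 4382 and 4335, against 2191, 2044 and 2158 in WT anti-PD-1 libraries. The lowest value with LGG was well above the highest without it in each pair, and the log2 changes were 0.98 ± 0.37 (SE, adjusted p = 0.0323) and 1.12 ± 0.37 (SE, adjusted p = 0.0153).

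In complex IV, Cox5a, a nuclear subunit on the matrix side, fell by 0.33 on the log2 scale with LGG in WT (adjusted p = 0.0282) and by 0.40 in the combination comparison (adjusted p = 0.00874). The other calls were low-expressed tissue isoforms. Cox6b2, known as the testis form of Cox6b (ENSMUSG00000051811, chr7:4751792-4753094 of mm10), had 159, 158 and 129 in WT LGG and 83.8, 81.3 and 82.5 in WT IgG libraries. The log2 change was 0.84 ± 0.34 (SE, adjusted p = 0.0462), and beside anti-PD-1, where the call held in all 33 settings, it was 1.44 ± 0.34 (SE, adjusted p = 0.00136). Cox7a1, the heart and muscle form of Cox7a, had 41.2, 26.7 and 28.2 in WT LGG, against 58.8, 71.4 and 67.8 in WT IgG libraries. The log2 change was -1.04 ± 0.40 (SE, adjusted p = 0.0341), and beside anti-PD-1 it was -0.54 (adjusted p = 0.268). The call with LGG alone held in 27 of 33 alternative settings. It was lost under edgeR, without any 1 WT IgG library and without WT LGG library 2 or 3. Cox4i1 and Cox8a, the main forms of their subunits, gave 0.03 and 0.05 with LGG in WT and did not pass; with the length and GC trend removed Cox8a gave -0.33.

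In complex V, the 2 subunits that make the catalytic ring of the ATP synthase fell. Atp5b, the beta subunit (ENSMUSG00000025393, chr10:128083273-128090391 of mm10), had 27276, 27067 and 25676 in WT LGG libraries, against 44015, 42813 and 43144 in WT IgG libraries, with a log2 change of -0.70 ± 0.08 (SE, adjusted p = 1.80e-07). Atp5a1, the alpha subunit, had 21169.6, 21025 and 19351 in WT LGG and 30974, 29924 and 31538 in WT IgG libraries, with a log2 change of -0.59 ± 0.09 (SE, adjusted p = 1.20e-05). Neither gene's groups overlapped, and the changes were -0.83 and -0.70 beside anti-PD-1. Atp5f1, of the stator stalk, fell in the combination comparison only by the test (-0.44, adjusted p = 0.014, and -0.16, adjusted p = 0.384 with LGG alone); the difference between the comparisons was not tested.

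**Figure D3:**
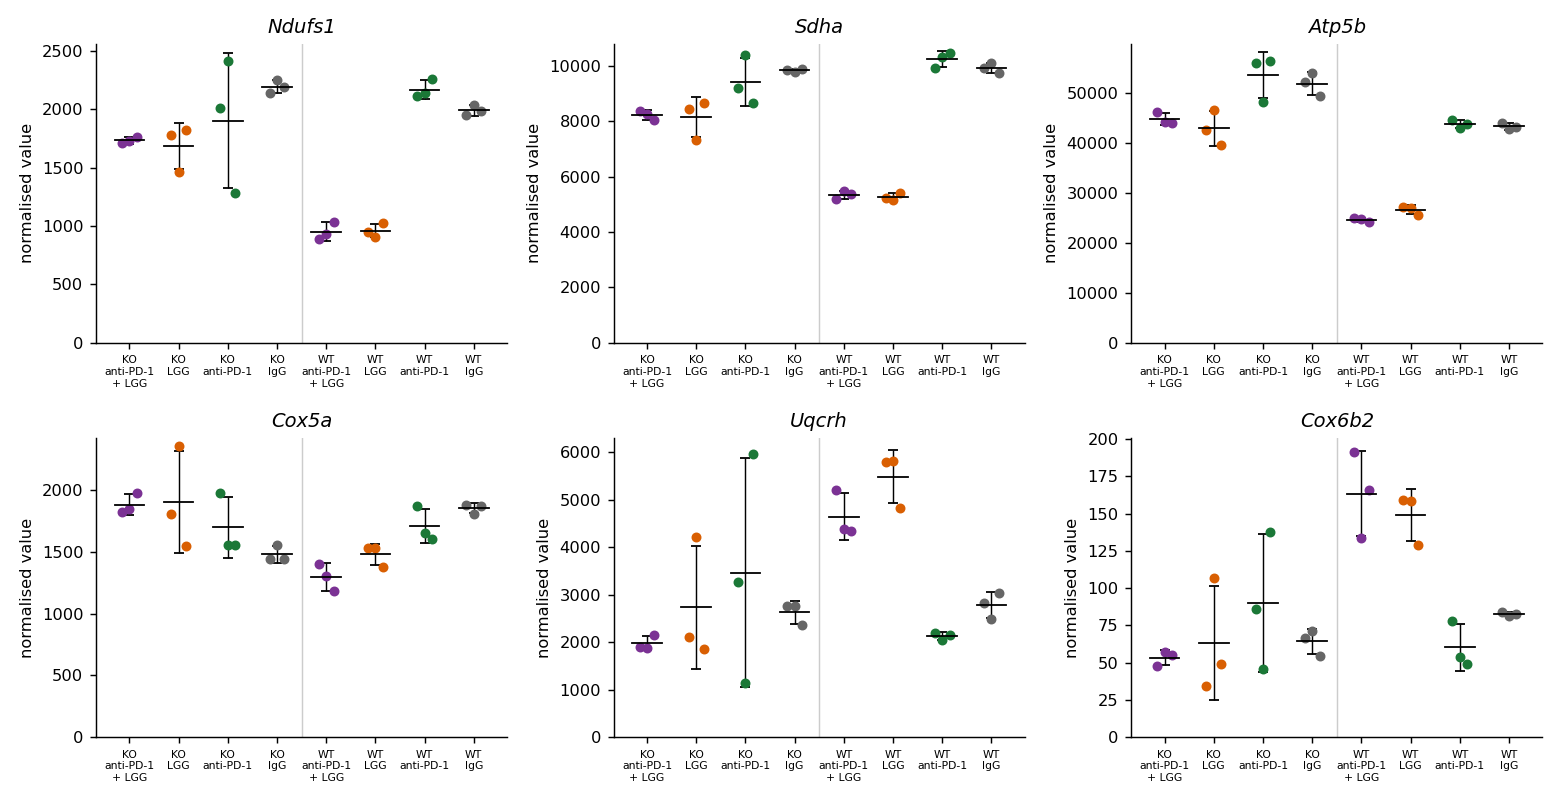
Normalised values of 6 nuclear subunit genes in every library; points are libraries, lines are means and bars are SD (n = 3), with KO groups left of WT groups and treatments in the order combination, LGG, anti-PD-1, IgG. Ndufs1, Sdha and Atp5b are low and Uqcrh and Cox6b2 are high in the 6 WT libraries with LGG, while KO libraries differ less by treatment or spread widely.

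Promoters of the subunits with the largest rises and falls in WT LGG libraries are shown because these genes moved in opposite directions. RefSeq's promoter table (GRCm38.p6) holds windows of 250 bases before to 50 bases after the start for 78 of the 104 members, and the genes are the 2 largest rises and 2 largest falls among those it holds. Capitals mark an ETS motif (CCGGAAG) or an NRF1 motif (GCGCATGC), both searched on both strands; these are motifs of factors known to act on many respiratory genes. The windows are chr4:116075021-116075320 (- strand) for Uqcrh, chr7:4753045-4753344 (- strand) for Cox6b2, chr7:30183921-30184220 (+ strand) for Cox7a1 and chr13:74350191-74350490 (- strand) for Sdha.
Uqcrh: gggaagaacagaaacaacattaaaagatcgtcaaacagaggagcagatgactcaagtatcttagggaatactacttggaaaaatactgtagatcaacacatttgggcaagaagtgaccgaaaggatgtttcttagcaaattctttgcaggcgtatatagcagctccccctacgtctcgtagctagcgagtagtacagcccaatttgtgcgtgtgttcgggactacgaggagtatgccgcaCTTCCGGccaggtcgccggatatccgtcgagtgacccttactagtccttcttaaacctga
Cox6b2: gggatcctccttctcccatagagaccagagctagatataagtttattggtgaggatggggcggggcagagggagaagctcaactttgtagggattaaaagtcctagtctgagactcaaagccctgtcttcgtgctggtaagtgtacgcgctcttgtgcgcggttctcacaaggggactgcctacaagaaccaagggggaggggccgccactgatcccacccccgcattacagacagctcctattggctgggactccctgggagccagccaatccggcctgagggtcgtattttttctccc
Cox7a1: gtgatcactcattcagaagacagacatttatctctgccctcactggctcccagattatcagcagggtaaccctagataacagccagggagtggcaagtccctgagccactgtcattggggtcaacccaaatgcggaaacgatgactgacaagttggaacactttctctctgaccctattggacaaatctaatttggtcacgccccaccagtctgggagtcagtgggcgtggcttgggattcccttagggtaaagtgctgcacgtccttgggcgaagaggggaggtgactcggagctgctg
Sdha: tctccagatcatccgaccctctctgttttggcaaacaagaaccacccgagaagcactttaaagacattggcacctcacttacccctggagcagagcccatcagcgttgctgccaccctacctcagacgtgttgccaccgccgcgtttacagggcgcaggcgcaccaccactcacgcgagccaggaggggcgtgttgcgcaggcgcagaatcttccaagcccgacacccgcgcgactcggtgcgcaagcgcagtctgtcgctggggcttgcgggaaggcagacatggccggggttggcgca
Only the Uqcrh window among these 4 holds a match, 1 ETS motif. Over the 71 windows of 66 nuclear subunit genes, 14.1% hold the NRF1 motif and 22.5% the ETS motif, against 2.71% and 8.86% of all 32851 windows in the table.

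Assembly factors included the largest fall of all members in WT. Ndufaf4, which helps to build complex I, had 226, 262 and 228 in WT LGG libraries, against 636, 608 and 584 in WT IgG libraries, and 225, 239 and 225 in WT combination libraries, against 685, 701 and 737 in WT anti-PD-1 libraries. The log2 changes were -1.35 ± 0.11 (SE, adjusted p = 3.82e-09) and -1.62 ± 0.11 (SE, adjusted p = 2.34e-10). Ndufaf6 and Ndufaf7, also of complex I, fell in both WT comparisons. Sdhaf2, which attaches the flavin to Sdha, rose by 0.61 ± 0.12 (SE, adjusted p = 0.000304) with LGG in WT, with 2453, 2474 and 2259 in WT LGG and 1600.1, 1525 and 1585 in WT IgG libraries. In all, 1 of 12 factors rose and 3 fell with LGG in WT, 33.3% of them, beside 55.5% of all genes. In the WT combination comparison 2 rose and 3 fell, 41.7% of them, beside 56.8% of all genes. In KO, Ndufaf4 and Ndufaf6 fell with LGG (-0.60, adjusted p = 0.000365, and -0.54, adjusted p = 0.0185), and these with Ndufaf2 and Ndufaf8 fell in the combination comparison. The KO shares were 16.7% and 33.3% of the factors, beside 32.2% and 36.7% of all genes. Atp5s passed in none of the 10 comparisons with all libraries; without the 3 libraries it was higher in KO than in WT under IgG, by 0.52 on the log2 scale.

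In KO cells the same comparison gave few calls with all libraries. Against IgG, LGG came with 4 falls and 1 rise among the 79 subunits, 6.33% of them, beside 32.2% of all genes, although 75 estimates were negative and the median log2 change was -0.31. The falls were Cox6a2, Atp5f1, Sdha and Atp5b, and the rise was Cox5a. Sdha had 8425, 7321 and 8671 in KO LGG libraries, against 9864, 9780.0 and 9868 in KO IgG libraries, a log2 change of -0.28 ± 0.07 (SE, adjusted p = 0.00432). Atp5b had 42713, 46609 and 39650.0 in KO LGG and 52319, 53939 and 49523 in KO IgG libraries, a change of -0.27 ± 0.08 (SE, adjusted p = 0.00912). The groups did not overlap for either gene. Cox5a had 1806, 2364 and 1549 in KO LGG, against 1441, 1561 and 1446 in KO IgG libraries; these overlapped, and without the 3 libraries the change was 0.17 with an adjusted p of 0.0692.

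The number of calls in KO depended on the libraries that stood apart. With them left out, 74 of 79 subunits fell with LGG and none rose, beside 61.4% of all genes, with a median of -0.63. Leaving out KO LGG library 2 alone gave 19 calls, KO anti-PD-1 library 2 alone 16 and library 3 alone 10. Leaving out another KO LGG or KO IgG library gave 2 to 5, and a fit of only the libraries compared gave 0, beside 20.9% of all genes. In the KO combination against KO anti-PD-1, 9 subunits fell and none rose with all libraries, beside 36.7% of all genes, and the median was -0.59. The falls were Cox6a2, Atp5o, Ndufab1, Ndufs8, Atp5c1, Atp5f1, Atp5a1, Atp5b and Sdha. Of 33 alternative settings, the calls of Atp5o and Atp5c1 held in 9, that of Ndufab1 in 10 and that of Sdha in 24, and these 4 were lost under the replicate block. Leaving out all 3 gave 72 falls and no rise, beside 54.9% of all genes, but a single anti-PD-1 library then stands for its group. Leaving out anti-PD-1 library 2 alone gave 72 calls, leaving out library 3 or library 1 gave 4, and leaving out a KO combination library gave 2 or 3. edgeR called 41 falls, beside 38.3% of all genes, and DESeq2 52, beside 42.1%. A limma fit of only the libraries compared called 0, beside 10.2%.

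**Figure D4:**
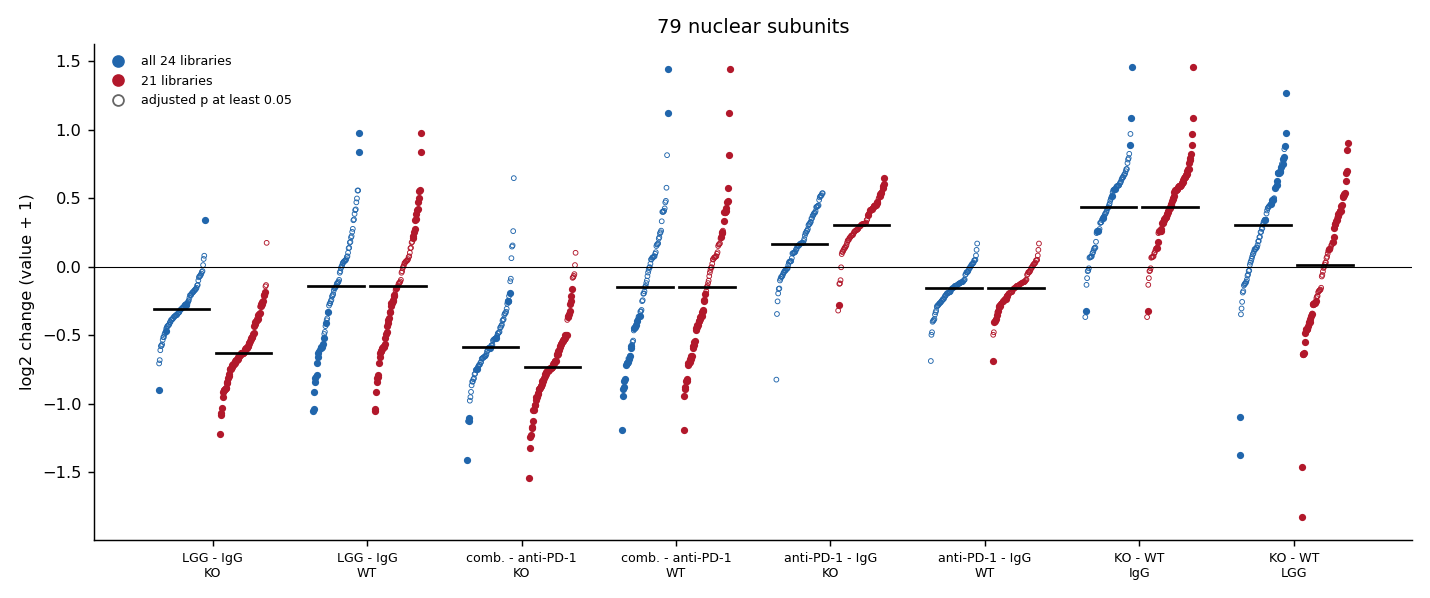
Log2 changes of the 79 nuclear subunits in 8 comparisons, with all 24 libraries (left, blue) and without the 3 KO libraries that stood apart (right, red; 21 libraries). Filled points have an adjusted p below 0.05 and black lines are medians. With LGG in KO the median is -0.31 with all libraries and -0.63 without the 3; in KO against WT under LGG it is 0.31 and 0.02.

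The muscle isoform Cox6a2 gave the largest falls in KO. It had 979, 1075 and 1036 in KO combination, against 3001, 1326 and 5128 in KO anti-PD-1 libraries, and 837, 1608 and 802 in KO LGG, against 2078, 2052 and 1640.3 in KO IgG libraries. No pair overlapped, and the log2 changes were -1.41 ± 0.32 (SE, adjusted p = 0.00203) and -0.90 ± 0.32 (SE, adjusted p = 0.0391). In WT LGG libraries it had 657, 665 and 561, against 674, 606 and 818 in WT IgG libraries, a change of -0.15 (adjusted p = 0.721). Per kilobase of its longest annotated transcript, Cox6a2 averaged 2829 in KO IgG and 1028 in WT IgG libraries, while its counterpart Cox6a1 averaged 23855 and 22685 in the same groups, so Cox6a1 was the more abundant form in both.

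The difference between the genotypes in the response to LGG was tested directly, as the LGG change in KO minus that in WT. With IgG as the base, 6 nuclear subunits had a positive difference and none a negative one, beside 34.9% of all genes: Ndufs1, Cox5a, Sdha, Ndufb8, Atp5b and Atp5a1. For Sdha the difference was 0.63 ± 0.10 (SE, adjusted p = 4.29e-05), the change being -0.28 in KO and -0.91 in WT. For Ndufs1 it was 0.67 ± 0.21 (SE, adjusted p = 0.0173), with changes of -0.38 in KO and -1.05 in WT. Cox5a rose in KO and fell in WT, and the estimates of the other 5 were more negative in WT than in KO. Beside anti-PD-1, 8 differences were positive and 2 negative, beside 37.7% of all genes, and the 8 included all 6. The negative ones were Cox6b2 (-2.05, adjusted p = 0.00245) and Uqcrh (-1.63, adjusted p = 0.02), which rose in WT and had estimates of -0.61 and -0.52 in KO.

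Leaving out the 3 libraries, the balance of these differences turned to the negative side. There were then 9 positive and 49 negative differences with IgG as the base, beside 62.8% of all genes, and 9 positive and 52 negative ones beside anti-PD-1, beside 56.8% of all genes. The 6 and 10 genes called with all libraries kept their call and sign in both. All 49 negative ones fell in KO in that setting, among them Cox7a2, with -1.17 (adjusted p = 1.32e-07), Ndufv2, with -1.20 (adjusted p = 1.04e-07), and Ndufa4, with -1.10 (adjusted p = 2.57e-07). With all libraries the same 3 differences were -0.77 (adjusted p = 0.301), -0.91 (adjusted p = 0.0827) and -0.79 (adjusted p = 0.108). edgeR gave 8 positive and 11 negative differences beside anti-PD-1, beside 39.2% of all genes, and DESeq2 8 and 17, beside 42.7%. The 3 genes were picked after their values were seen.

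Under control IgG, 8 nuclear subunits were higher and 1 lower in KO than in WT cells, and 70 did not pass. That is 11.4% of the subunits, beside 39% of all genes. Of the estimates 72 of 79 were positive, with a median log2 difference of 0.44. Uqcrb, a small subunit of complex III, had 3116, 3578 and 2482 in KO IgG libraries, against 1519.6, 1247 and 1533 in WT IgG libraries, a difference of 1.08 ± 0.37 (SE, adjusted p = 0.0261). Cox6a2 differed by 1.46 ± 0.32 (SE, adjusted p = 0.00123), and Ndufb4, an accessory subunit of complex I, by 0.89 ± 0.24 (SE, adjusted p = 0.0069), with 3042, 3315 and 2674 in KO IgG and 1622, 1564 and 1669.6 in WT IgG libraries. Cox5a was the 1 subunit lower in KO (-0.32, adjusted p = 0.0411). Although this comparison contains none of the 3 libraries, leaving them out of the pooled spread gave 61 subunits up and 1 down, beside 63.8% of all genes. Leaving out single libraries gave 3 calls (without KO IgG library 2) to 36 (without KO anti-PD-1 library 2).

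Under LGG, KO against WT gave 18 subunits up and 2 down, beside 55.2% of all genes, with a median of 0.31. Ndufa12 (0.98, adjusted p = 0.00693), Ndufs1 (0.80, adjusted p = 0.000109), Uqcrc1 (0.75, adjusted p = 0.00426) and Atp5b (0.69, adjusted p = 2.41e-07) were among those higher in KO, and Cox6b2 (-1.37, adjusted p = 0.00211) and Uqcrh (-1.10, adjusted p = 0.0176) were the ones lower. With the 21 remaining libraries, 26 were up and 23 down, beside 71.3% of all genes, and the median was 0.02. Leaving out KO LGG library 2 alone gave 11 calls and KO anti-PD-1 library 2 alone 33. These comparisons share libraries with the LGG comparisons above and are not a separate measurement.

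Anti-PD-1 by itself came with no nuclear subunit past the threshold in either genotype when all libraries were used, beside 1.8% of all genes in KO and 0.0314% in WT. edgeR and DESeq2 on the recovered reads also called no subunit. At an unadjusted p below 0.05, 1992 genes of the table passed in KO and 1028 in WT. The medians were 0.16 in KO and -0.15 in WT. When the 3 libraries were left out, 15 subunits rose and 1 fell in KO, beside 8.94% of all genes, from 1 anti-PD-1 library, and 51 were called without anti-PD-1 library 2 alone. In WT 13 fell and none rose, beside 8.46% of all genes.

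Of the 12 mitochondrially encoded mRNAs, none passed in either LGG comparison against IgG with all libraries, by limma, edgeR or DESeq2. The medians were -0.05 in KO and -0.12 in WT, beside -0.31 and -0.14 over the nuclear subunits. The absence of calls depended on the fit. With only the libraries compared, limma called 6 in WT with LGG. It then called all 12 in the WT combination comparison, where limma on all libraries called none. The difference between nuclear and mt- mRNAs was not tested. At an unadjusted p below 0.05, 5187 genes of the table passed in KO and 7636 in WT. Mt-Co1, the catalytic subunit of complex IV, had 340539.7, 346984 and 393721 in WT LGG and 323423, 325645 and 308997 in WT IgG libraries, a change of 0.17 (adjusted p = 0.786). In WT combination libraries it had 375017, 415777 and 417444, against 279170.4, 297141 and 315599.6 in WT anti-PD-1 libraries, which did not overlap, with a change of 0.44 (adjusted p = 0.458). In that comparison all 12 estimates were positive, with a median of 0.36 and no call with all libraries.

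A pair of mt- mRNAs passed elsewhere. Mt-Co1 was higher in the KO combination, with 341153, 321366 and 303430.5, against 206979, 290178 and 35179 in KO anti-PD-1 libraries, a change of 1.33 ± 0.48 (SE, adjusted p = 0.0368). Without library 3 of KO anti-PD-1 alone the change was 0.39 and no longer passed, and without the 3 libraries it was 0.64 (adjusted p = 0.0011). Mt-Co3, another complex IV subunit, had 3181, 2246 and 1702 in KO IgG, against 1502, 1277 and 1493 in WT IgG libraries, a difference of 0.70 ± 0.24 (SE, adjusted p = 0.0268).

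Reads of several mt- genes cannot be told from nuclear copies of the mitochondrial genome. Of all windows of 50 bases, 100% of mt-Co2, 99.9% of mt-Co3, 99.5% of mt-Atp6, 98.8% of mt-Nd4l, 98.0% of mt-Nd3, 62.2% of mt-Nd4, 51.1% of mt-Co1, 8.19% of mt-Nd2 and 7.61% of mt-Nd5 occur in a nuclear transcript, and their values are uncertain to that extent. Mt-Cytb, the cytochrome b of complex III, and mt-Nd1 and mt-Nd6 of complex I have no such window. Mt-Cytb had 73332, 74959 and 80044 in WT LGG and 87587, 81848 and 89178 in WT IgG libraries, a change of -0.18 (adjusted p = 0.518). Mt-Nd1 changed by -0.23 (adjusted p = 0.301) and mt-Nd6 by 0.21 (adjusted p = 0.409) in the same comparison.

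Of a list of 11 genes taken as induced modulators of respiration, 9 rose and 1 fell with LGG in WT, and 5 rose and none fell in KO. That is 45.5% of the list in KO, beside 32.2% of all genes, and 90.9% in WT, beside 55.5%. The list was chosen with earlier results of these data known, so these shares are descriptions and not independent support. AA467197 encodes Nmes1, a paralogue of the complex IV subunit Ndufa4. It had 10226, 10668 and 8797 in WT LGG libraries, against 4057, 3870.3 and 3989.9 in WT IgG libraries, a log2 change of 1.31 ± 0.13 (SE, adjusted p = 5.78e-08). In KO LGG libraries it had 9165, 11671 and 7630.4, against 6813, 8226 and 7367 in KO IgG libraries, a change of 0.33 (adjusted p = 0.0671) with overlapping groups. Ndufa4 itself had 1289, 1172 and 1066 in WT LGG and 999, 1039 and 994 in WT IgG libraries, a change of 0.21 (adjusted p = 0.512), and -0.58 (adjusted p = 0.103) in KO. The difference between the genotypes for AA467197 was -0.98 ± 0.19 (SE, adjusted p = 0.000353).

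Acod1, whose product makes itaconate, an inhibitor of complex II, had 37356, 34628 and 36400.5 in KO LGG libraries, against 2766, 3008 and 2854 in KO IgG libraries, and 29414, 29146 and 27569 in WT LGG, against 6738, 6769 and 6598 in WT IgG libraries. The changes were 3.65 ± 0.07 (SE, adjusted p = 3.30e-18) in KO and 2.10 ± 0.07 (SE, adjusted p = 2.47e-15) in WT. Nos2, the inducible nitric oxide synthase, whose product blocks complex IV, had 1738, 1461 and 1757 in KO LGG, against 116, 106 and 107 in KO IgG libraries, and 31284, 30559 and 30018 in WT LGG, against 244, 228 and 202 in WT IgG libraries. Its changes were 3.89 ± 0.08 (SE, adjusted p = 1.96e-17) in KO and 7.09 ± 0.08 (SE, adjusted p = 7.50e-22) in WT. Both genes were also higher in the combination than in anti-PD-1 in each genotype, with non-overlapping groups.

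**Figure D5:**
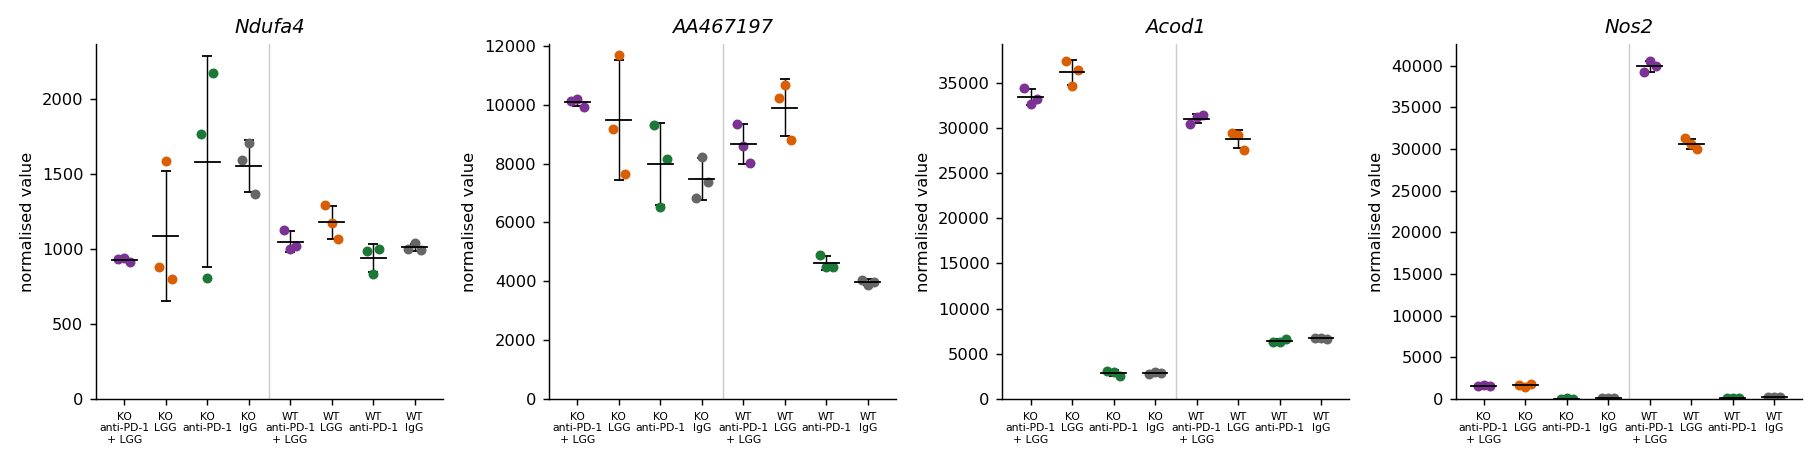
Normalised values of the complex IV subunit Ndufa4, its paralogue AA467197, and Acod1 and Nos2 in every library; points are libraries, lines are means and bars are SD (n = 3), with KO left of WT. Acod1 is high in all 12 libraries with LGG, and Nos2 is at least 30018 in the 6 WT libraries with LGG and at most 1757 in KO libraries.

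Other mitochondrial gene lists were also chosen with earlier results of these data known. They are read beside the 32.2% of all genes called with LGG in KO and the 55.5% called in WT. Of 18 citric acid cycle genes, 17 fell and none rose with LGG in WT, and 8 fell and 1 rose in KO, 50% of the list in KO and 94.4% in WT, with median log2 changes of -0.26 in KO and -0.72 in WT. Of 77 mitochondrial ribosome genes, 18 fell and 4 rose in WT, and 6 fell and none rose in KO, with medians of -0.31 in KO and -0.27 in WT; at 7.79% of the list in KO and 28.6% in WT, both shares were below those of all genes. Without the 3 libraries, 69 of the ribosome genes fell in KO and 40 fell in WT, where 11 rose, beside 61.4% of all genes in KO and 73.4% in WT. Of 22 genes for upkeep and transcription of mitochondrial DNA, 12 fell and 2 rose in WT, and 4 fell and none rose in KO, 18.2% of the list in KO and 63.6% in WT, with medians of -0.22 in KO and -0.49 in WT; without the 3 libraries 12 fell and 1 rose in KO. Ppargc1b, a coactivator of respiratory genes, had 84.7, 81.2 and 88.3 in WT LGG libraries, against 516, 586 and 534 in WT IgG libraries, a change of -2.67 ± 0.14 (SE, adjusted p = 4.03e-12). In KO it rose, with 466, 388 and 568 in KO LGG, against 319, 251 and 311 in KO IgG libraries, by 0.68 ± 0.14 (SE, adjusted p = 0.000951). Tfam, which packages and transcribes mitochondrial DNA, changed by -0.12 (adjusted p = 0.305) in WT and fell by 0.27 in KO (adjusted p = 0.0296). Cycs, the cytochrome c that carries electrons to complex IV, gave -0.31 (adjusted p = 0.0711) in WT and fell by 0.56 in KO (adjusted p = 0.00441). Ucp2, an inner membrane carrier, fell in WT (-1.47, adjusted p = 1.99e-07) and gave -0.39 (adjusted p = 0.073) in KO.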

How the data were processed

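RNA of 24 libraries was measured, 3 in each of 8 groups set by genotype and treatment. Per the submitters' processing notes, the authors used STAR 2.4.0, HTSeq 0.6.1 and DESeq2 (version not stated) with build mm10. The deposited values are a signal, normalised counts per gene in 12767 genes; in every library 100.0% of values were whole multiples of 1 step (tolerance 0.001), so read counts were recovered for the count tests, in which edgeR called 4234 genes for LGG against IgG in KO and 7174 in WT. log2(value + 1) was tested with limma 3.58.1 (R 4.3.3) over genes with a mean of at least 10 (12749), 1 fit over the 8 groups, Benjamini-Hochberg adjusted at 0.05. Alternatives were edgeR 4.0.16, DESeq2 1.42.0, other scaling, pseudocount and filter, a length and GC correction, a replicate block, fewer libraries and each library left out.

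Members, gene lists and tests were chosen with earlier results of these data known. Named genes are, per comparison and class, the called members that rose most and fell most, up to 2 each (mean of at least 20 in the higher group), tissue isoform pairs, complex II, the mt- mRNAs, and listed genes of other pathways. Other members are named as calls of their class. Coordinates are from mm10 annotation; depth was 24531528 to 49272593 reads. Values of 1 member gene on its own are not reported here.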

Additional observations from a re-analysis of the deposited data

Results flagged for a closer look

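The response to LGG differed between KO and WT by the test of the difference itself (limma, adjusted over all genes) for the genes below, each given as the log2 change in KO minus that in WT. With IgG as the base, the difference was positive for Ppargc1b (3.35), Acod1 (1.55), Ucp2 (1.08), Ndufaf4 (0.75), Cox5a (0.67), Ndufs1 (0.67), Sdha (0.63), Ndufb8 (0.49), Atp5b (0.43), Atp5a1 (0.41). It was negative for Nos2 (-3.20), AA467197 (-0.98), Sdhaf2 (-0.62). Beside anti-PD-1, it was positive for Ppargc1b (2.45), Acod1 (1.27), Ndufaf4 (1.10), Ndufs1 (1.10), Ndufa9 (0.91), Sdha (0.75), Ucp2 (0.74), Ndufb8 (0.74), Atp5b (0.58), Cox5a (0.55), Ndufb6 (0.49), Atp5a1 (0.45). It was negative for Nos2 (-3.34), Cox6b2 (-2.05), Uqcrh (-1.63), Sdhaf2 (-0.56), AA467197 (-0.56).

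AA467197, Acod1, Nos2, Ppargc1b and Ucp2 are not respiratory chain subunits. Groups of 3 libraries are too small to test single libraries as outliers.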

How the results depend on the processing

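Of 9570 alternative values of the named results that passed the test, 9171 stayed past the threshold with the same sign, 399 missed it and 0 changed sign. Calls kept in all 33 alternatives numbered 10 of 18 for LGG against IgG in WT, 16 of 21 for the combination against anti-PD-1 in WT, 0 of 5 and 0 of 9 in KO, 2 of 9 and 10 of 20 for KO against WT under IgG and LGG, and 5 of 6 and 8 of 10 for the differences between genotypes. The causes of the changes below were not tested.

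Counts of nuclear subunits and of mt- mRNAs called changed by setting as follows. The share of all genes called moved with the setting too, so these counts are not results about the members alone. For LGG against IgG in KO it was 32.2% with all libraries and 20.9% with only the libraries compared. In the KO combination comparison it was 36.7% and 10.2%. For LGG against IgG in WT it was 55.5%, and 62.5% with the length and GC trend removed. Fitting only the libraries compared gave, for LGG against IgG, 0 nuclear in KO, and 49 nuclear and 6 mt- in WT. For the combination against anti-PD-1 it gave 0 and 0 in KO, and 56 and 12 in WT. For anti-PD-1 against IgG it gave 22 and 8 in WT, and for KO against WT under IgG 62 and 6. With the length and GC trend removed, LGG against IgG gave 39 and 1 in KO and 44 and 2 in WT, and the combination comparison 53 and 3 in KO and 47 nuclear in WT. Anti-PD-1 in KO gave 2 and 1, KO against WT 43 and 2 under IgG and 47 and 4 under LGG, and the differences between genotypes 23 and 1 with IgG as the base and 22 nuclear beside anti-PD-1.

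Without the 3 libraries, LGG against IgG gave 74 and 6 in KO and 50 and 1 in WT. The combination comparison gave 72 and 8 in KO, the mt- balance changing sign, and 52 and 6 in WT. Anti-PD-1 gave 16 nuclear in KO and 13 and 3 in WT, KO against WT 62 and 8 under IgG and 49 and 2 under LGG. The differences gave 58 and 4, and 61 and 8 beside anti-PD-1, with the nuclear balance changed to negative in both. edgeR and DESeq2 gave 41 and 52 nuclear and 0 mt- in the KO combination comparison, 1 mt- each in the WT combination comparison, 2 mt- each in KO against WT under IgG, and 19 and 25 nuclear, on balance negative, in the difference beside anti-PD-1. TMM scaling gave 1 mt- in the WT combination comparison.

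With the replicate block the KO combination comparison gave 5 nuclear calls, and every other count stayed within 1.5 times. Deviations of same-numbered libraries from their group means correlated over 0.1 in 6 of 24 checks. The highest was 0.56, between KO LGG and WT LGG library 3, and the lowest -0.43, between KO anti-PD-1 and KO IgG library 3. Each mean is of 3 libraries, and some hold the libraries that stood apart. The checks therefore cannot decide whether the numbers pair the libraries, and the main fit does not pair them.

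Leaving out each library gave these ranges, nuclear then mt-. LGG against IgG gave 2 to 19 and 0 to 1 in KO, and 12 to 29 and 0 in WT. The combination comparison gave 2 to 72 and 0 to 5 in KO, and 17 to 28 and 0 to 2 in WT. Anti-PD-1 gave 0 to 51 and 0 to 5 in KO, and 0 and 0 in WT. KO against WT gave 3 to 36 and 0 to 3 under IgG, and 11 to 33 and 0 under LGG. The differences gave 5 to 15 and 0 to 1, and 9 to 57 and 0 to 4 beside anti-PD-1.

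Single genes short of the threshold passed it with the other sign in 22 cases. With the length and GC trend removed, LGG in WT gave Atp5g2 -0.36 and Cox8a -0.33, and the WT combination Atp5g2 -0.42, Cox4i1 -0.37, Cox6a1 -0.55 and Cox8a -0.55. LGG in KO gave Cox6a1 -0.32 and Polrmt -0.32, the KO combination Polrmt -0.21, KO against WT Atp5g2 0.24 under LGG and Elac2 0.24 and Polrmt 0.37 under IgG, and the difference beside anti-PD-1 Atp5g3 0.41 and Cox6a1 0.36. Without the 3 libraries, LGG in KO gave Cox6a1 -0.27, KO against WT under LGG Cox7a2 -0.38, the KO combination mt-Atp6 -0.60, mt-Nd4 -0.33 and mt-Nd6 -0.51, and the difference beside anti-PD-1 mt-Cytb -0.57, mt-Nd1 -0.43 and mt-Nd4 -0.76.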

Other observations

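The nuclear subunit genes are short, with a median longest transcript of 1005 bases, against 3360 bases over all genes. Over the 79 nuclear subunits, Pearson's r between the log2 change and log2 transcript length was -0.27 for LGG against IgG in WT, -0.41 for the combination against anti-PD-1 in WT and 0.47 for anti-PD-1 against IgG in WT. It was 0.05 and 0.11 in the same LGG comparisons in KO. These are descriptions across genes that share libraries, and genes are not independent replicates. Of the subunits with transcripts over 1 kb, 14 of 41 fell with LGG in WT and none rose; of those up to 1 kb, 2 of 38 fell and 2 rose, beside 55.5% of all genes called. The split depended on the fit. With the length and GC trend removed, 19 fell and 1 rose over 1 kb, and 22 fell and 2 rose up to 1 kb, beside 62.5% of all genes. Without the 3 libraries that stand apart, 25 fell and 5 rose over 1 kb, and 10 fell and 10 rose up to 1 kb, beside 73.4%.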
